A study of Mus musculus with 4 samples.

Results

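Hair pegs are the downgrowing epithelial columns from which embryonic hair follicles form, and their cells send growth factors to the dermal cells, nerve fibres and melanocytes around them. The genes described here encode 9 such ligands: the platelet-derived growth factors Pdgfa, Pdgfb, Pdgfc and Pdgfd, the Kit ligand Kitl, the neurotrophins Bdnf and Ntf3, the endothelin Edn1 and the hepatocyte growth factor Hgf. They were chosen by gene symbol, and all 9 were found among the 23361 rows of the deposited expression table. RNA-seq had been made from 2 libraries of Nfatc1+ and 2 libraries of Shh+ hair peg cells of mouse embryonic back skin. The comparison asks how the cells of a peg marked through the gene Nfatc1 differ from those marked through Shh.

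Both populations came from E17.5 embryos carrying a Rosa-stop-tdTomato reporter and K14-H2BGFP, a green nuclear label of keratin 14 epithelium. One group carried Nfatc1-CreER and the other Shh-CreER. These are knock-in lines, so the recombinase follows the marking gene and acts once tamoxifen is given, here at E15.5. Descendants of labelled cells keep the tdTomato label, so a sorted cell need not express the marking gene at E17.5. Cells positive for both colours were sorted. The tissue was handled differently in each group. Whole skin was put in 0.25% trypsin for 16 min for Nfatc1+ cells, whereas for Shh+ cells the epidermis was first lifted off with 0.4 mg/ml dispase over 1 hr and the dermis then had 10 min in trypsin. Population and handling cannot be told apart in any comparison here. Nothing states that replicate libraries were made from different litters, so the tests measure the spread between libraries, which may be technical.

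As background, PDGF-A and PDGF-C act on the receptor PDGFRα of fibroblasts and dermal condensates, and PDGF-B and PDGF-D act mainly on PDGFRβ of pericytes. KITL, made by keratinocytes, guides melanoblasts through the receptor KIT, and endothelins act on melanocyte precursors through EDNRB and on other cells through EDNRA. Neurotrophins keep sensory neurons alive through TRK receptors, among them those encoded by Ntrk2 and Ntrk3, and through NGFR. HGF is made mostly by mesenchymal cells and acts on epithelial cells and melanocytes that carry MET.

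The values were FPKM, mapped fragments scaled to transcript length and to the fragments mapped in the library, so levels of different genes can be compared per length. Absolute depth is unknown. From the value of 1 fragment among genes under 0.3 FPKM, depth relative to Nfatc1+ replicate 1 came to 0.927 for the other Nfatc1+ library and to 0.927 and 0.575 for Shh+ replicates 1 and 2. Low values are thus least precise in Shh+ replicate 2. Each marking gene was higher in its own group, with Shh at 10.5 and 11.7 FPKM in Nfatc1+ and 144 and 145 FPKM in Shh+ libraries, and Nfatc1 at 112 and 116 FPKM and at 25.3 and 20.1 FPKM. Keratinocyte markers were high in all 4 libraries, Krt5 at 2415 to 4323 FPKM and Trp63 at 234 to 313 FPKM. Markers of other skin cells were also present despite the sort. The dermal collagen gene Col1a1, for example, was at 52.7 to 165 FPKM.

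The ligand genes separated in both directions. The limma test was run on log2(FPKM + 0.5) of every gene whose mean reached 0.5 FPKM, and a gene was called at a Benjamini-Hochberg adjusted p under 0.05 over all 12750 genes tested. Of the 9 ligands, 7 passed the filter on low values and 5 of them were called, beside 31.4% of all tested genes. Pdgfa and Pdgfc were higher in Shh+ cells, where 14.9% of all tested genes were called, and Pdgfb, Edn1 and Ntf3 were higher in Nfatc1+ cells, where 16.6% were called. Kitl and Bdnf were not called, and Hgf and Pdgfd were too low to test. Log2 fold changes are given as Shh+ minus Nfatc1+ and are smaller than the true change where levels are low. Folds compare the mean FPKM of the groups. In bulk samples, fewer cells of a type and less RNA per cell cannot be told apart. The 7 tested ligands had a median log2 fold change of −0.13, beside 0.0018 over all tested genes.

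**Figure D1:**
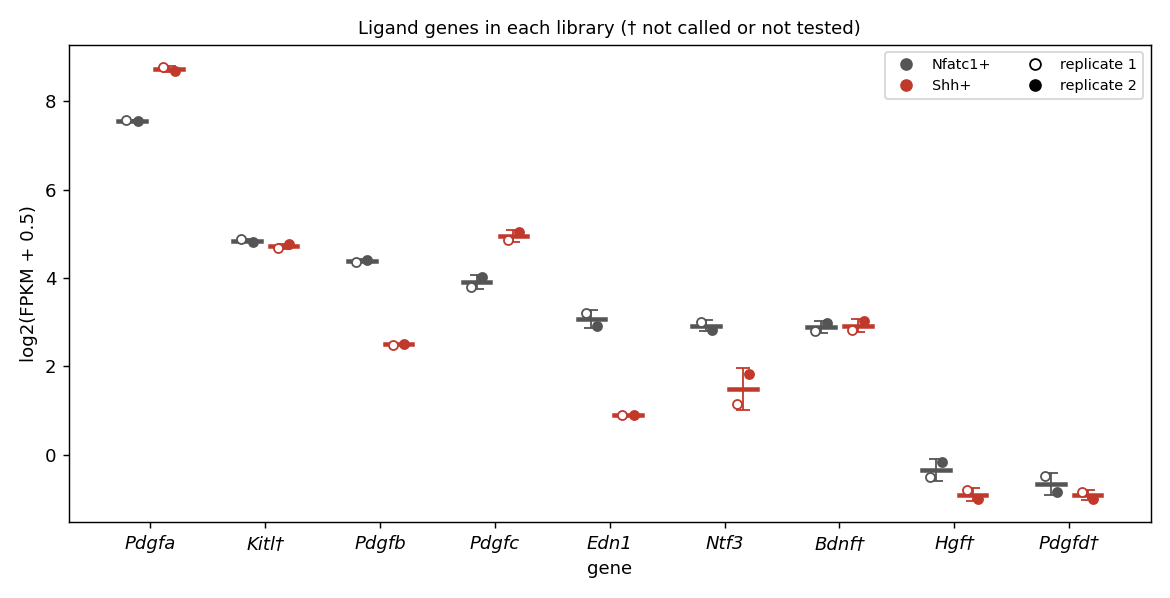
The 9 ligand genes on a log2(FPKM + 0.5) axis, 1 point per library, grey for Nfatc1+ and red for Shh+ cells, with open and filled circles for replicates 1 and 2, thick lines for means and bars for the SD over 2 libraries. Daggers mark the 4 genes that were not called or not tested. Pdgfa lies above the other ligands in both populations, and the widest gaps are those of Edn1 and Pdgfb, higher in Nfatc1+ cells.

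Pdgfa, which encodes the chain of PDGF-A, was the highest of the 9 ligands in every library. It lies on chromosome 5 of GRCm38 (138976014 to 138997370, minus strand). It was at 190.3 and 186 FPKM in Nfatc1+ replicates 1 and 2 and at 436 and 408 FPKM in Shh+ replicates 1 and 2. Both Shh+ libraries were above both Nfatc1+ libraries, and replicates lay close together. The means were 188 ± 3.13 and 422 ± 19.2 FPKM (SD, n = 2), a 2.24-fold difference (log2 fold change 1.16, standard error 0.079, limma adjusted p = 0.00139). In the Nfatc1+ libraries Pdgfa already exceeded 98.7% of all rows of the table, and in Shh+ libraries 99.4%.

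Pdgfc, the other PDGF gene higher in Shh+ cells, encodes a ligand that must be cleaved to become active. It lies on chromosome 3 (81036416 to 81214040). It was at 13.3 and 15.7 FPKM in Nfatc1+ and at 28.4 and 32.4 FPKM in Shh+ libraries. The groups did not overlap. Without overlap, 2 of the 7 tested ligands lay higher in Shh+ and 4 in Nfatc1+ libraries, beside 35.6% and 35.1% of all tested genes and 70.7% in either direction. The difference was 2.09-fold, from 14.5 ± 1.69 to 30.4 ± 2.84 FPKM (log2 fold change 1.04, standard error 0.12, limma adjusted p = 0.0056). Of 8 tested markers of dermal fibroblasts, which can also make PDGF-C, 1 was higher in Shh+ cells (Dcn) and none in Nfatc1+ cells. Of all tested genes, 14.9% and 16.6% were called in these directions. The 9 on the list summed to 402 and 683 FPKM in Nfatc1+ and to 631 and 743 FPKM in Shh+ libraries, with none at 0. These sums overlapped between the groups. Without Dcn the other 8 summed to 362 and 625 FPKM and to 304 and 318 FPKM, with both Nfatc1+ libraries above both Shh+ libraries. Col1a1, Col1a2 and Col3a1 were each above both Shh+ values in both Nfatc1+ libraries and were not called. The part of fibroblasts in the level of Pdgfc was not tested.

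Pdgfb went the other way. This gene, on chromosome 15 (79995874 to 80014977, minus strand), was at 20.1 and 20.7 FPKM in Nfatc1+ libraries and at 5.10 and 5.16 FPKM in Shh+ libraries. Replicates lay close together in both groups, and both Shh+ libraries lay far below both Nfatc1+ libraries. The means were 20.4 ± 0.422 and 5.13 ± 0.0408 FPKM, a 3.98-fold difference (log2 fold change −1.89, standard error 0.073, limma adjusted p = 0.000534). Endothelial cells are a known source of PDGF-B in skin. Of 6 tested endothelial and mural markers none was called by limma, beside 31.4% of all tested genes, and 0 had an unadjusted p under 0.05. Another 4 on the list were below the filter and were not tested. Among them Tek was at 0.325 and 0.558 FPKM in Nfatc1+ and at 0.227 and 0.133 FPKM in Shh+ libraries. Flt1 and Acta2 were also higher in both Nfatc1+ libraries than in either Shh+ library, and Rgs5 overlapped. Of all 10 on the list, 3 had the higher mean in Shh+ cells and the others in Nfatc1+ cells. The summed level of all 10 on that list was 48.2 and 50.6 FPKM in Nfatc1+ and 49.3 and 41.5 FPKM in Shh+ libraries, with none at 0, and most of it came from Cspg4. The endothelial gene Pecam1 was at 0.919 and 1.49 FPKM in Nfatc1+ and at 1.65 and 1.53 FPKM in Shh+ libraries. Cdh5 was at 1.10 and 1.21 and at 1.02 and 0.977 FPKM. The part of endothelial cells in the level of Pdgfb was not tested.

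The PDGF makeup of the populations therefore differed. Per length, Pdgfa transcripts outnumbered those of Pdgfb by 9.45 and 8.97 times in Nfatc1+ libraries and by 85.4 and 79.2 times in Shh+ libraries. Pdgfc was at 0.662 and 0.758 times the level of Pdgfb in Nfatc1+ cells and at 5.56 and 6.28 times in Shh+ cells. The ratio of Pdgfa to Pdgfc, in contrast, was 14.3 and 11.8 in Nfatc1+ and 15.4 and 12.6 in Shh+ libraries, with overlapping ranges. Of the summed FPKM of the 4 PDGF genes, Pdgfb made up 8.99% and 9.32% in Nfatc1+ and 1.09% and 1.16% in Shh+ libraries. These ratios combine genes already compared above and were not tested on their own.

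Pdgfd was near the limit of detection. It was listed at 0.210 and 0.0568 FPKM in Nfatc1+ libraries and at 0.0568 and 0 FPKM in Shh+ libraries. The ranges overlapped, and no difference was detectable at this level.

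**Figure D2:**
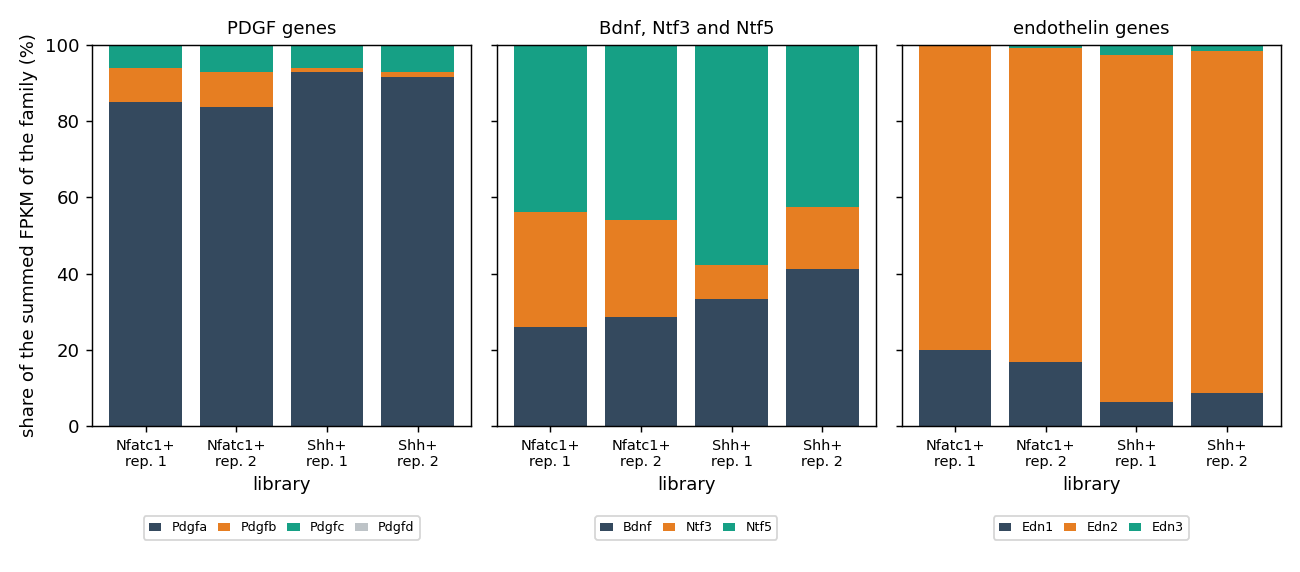
Share of the summed FPKM of the 4 PDGF genes (left), the neurotrophin genes Bdnf, Ntf3 and Ntf5 (middle) and the 3 endothelin genes (right) in each library, in percent. Pdgfb, Ntf3 and Edn1 take larger shares in both Nfatc1+ libraries than in either Shh+ library.

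No difference was called for Kitl. It lies on chromosome 10 (100015630 to 100100416) and encodes a membrane-bound factor that can also be shed. It was at 28.8 and 27.6 FPKM in Nfatc1+ and at 25.1 and 26.5 FPKM in Shh+ libraries. Both Nfatc1+ libraries were slightly above both Shh+ libraries, at means of 28.2 ± 0.831 and 25.8 ± 1.00 FPKM. The difference did not pass the test (log2 fold change −0.13, 95% interval −0.34 to 0.08, limma adjusted p = 0.285). Values per gene cannot separate the splice forms of Kitl that are shed or kept on the membrane.

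Ntf3 encodes neurotrophin-3, which supports sensory neurons including those that innervate Merkel cells. It lies on chromosome 6 (126101412 to 126166910, minus strand) and was at 7.50 and 6.58 FPKM in Nfatc1+ and at 1.73 and 3.02 FPKM in Shh+ libraries. Both Nfatc1+ libraries were above both Shh+ libraries, but the Shh+ replicates were spread wide. The difference was 2.97-fold, from 7.04 ± 0.644 to 2.37 ± 0.914 FPKM (log2 fold change −1.43, standard error 0.24, limma adjusted p = 0.0149). The call ended without Nfatc1+ replicate 1 (log2 fold change −1.34, adjusted p = 0.0638), in a range of adjusted p from 0.00271 to 0.0638 over the alternatives. Of 9 tested Merkel cell markers, 7 were called, each higher in Nfatc1+ cells as Ntf3 was, beside 16.6% of all tested genes. The summed level of all 10 markers was 60.3 and 68.3 FPKM in Nfatc1+ and 24.4 and 29.3 FPKM in Shh+ libraries. This sum was higher in replicate 2 of both populations. Ntf3 was lower in replicate 2 of Nfatc1+ cells and higher in replicate 2 of Shh+ cells. Atoh1, the defining transcription factor, was at 6.28 and 7.31 FPKM against 0.240 and 0.232 FPKM, and Krt20 was listed at 0 in Shh+ replicate 1. The part of these cells in the level of Ntf3 was not tested.

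Bdnf, which encodes brain-derived neurotrophic factor, was not called either. It lies on chromosome 2 (109674700 to 109727007) and was at 6.41 and 7.36 FPKM in Nfatc1+ and at 6.51 and 7.62 FPKM in Shh+ libraries. The ranges overlapped. The log2 fold change was 0.033, with a 95% interval of −0.28 to 0.35 (limma adjusted p = 0.855), so a difference of 2-fold lies outside the interval. The ratio of Bdnf to Ntf3 was 0.856 and 1.12 in Nfatc1+ libraries and 3.77 and 2.52 in Shh+ libraries.

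Edn1, which encodes endothelin-1, had the largest difference of the 7 tested ligands. It lies on chromosome 13 (42301476 to 42307990). It was at 8.74 and 7.06 FPKM in Nfatc1+ and at 1.36 and 1.37 FPKM in Shh+ libraries, with the groups far apart. The means were 7.90 ± 1.19 and 1.36 ± 0.00705 FPKM, a 5.79-fold difference (log2 fold change −2.16, standard error 0.12, limma adjusted p = 0.000917). Of 22 tested immediate early and stress genes, 12 were called by limma, each higher in Nfatc1+ cells, beside 16.6% of all tested genes. At an unadjusted p under 0.05 from limma, 16 were higher and 2 lower there. The list summed to 4447 and 4827 FPKM in Nfatc1+ and to 3305 and 2989 FPKM in Shh+ libraries. Within Nfatc1+ cells this sum was higher in replicate 2, as were 17 of the 22 genes. Edn1 was lower there, as were Fos (817 and 736 FPKM) and Fosb (127 and 82.4 FPKM). The sum includes Hspa8, at 1093 and 1029 FPKM in Nfatc1+ and at 1649 and 1264 FPKM in Shh+ libraries. Hspa8 was among the 3 genes of the list with the higher mean in Shh+ cells. The part of the immediate early and stress genes in the level of Edn1 was not tested. None of the tested endothelial and mural markers given with Pdgfb was called. The part of endothelial cells in the level of Edn1 was not tested.

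Hgf, on chromosome 5 (16553495 to 16620152), was listed at 0.199 and 0.394 FPKM in Nfatc1+ libraries, at 0.0715 FPKM in Shh+ replicate 1 and at 0 in Shh+ replicate 2. Both Nfatc1+ values were above both Shh+ values, but the gene was under the filter in all 4 libraries and was not tested.

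Within each population the ligands were ordered by level. In Nfatc1+ cells Pdgfa was followed by Kitl, Pdgfb and Pdgfc, each apart from the next. Edn1, Ntf3 and Bdnf then overlapped their neighbours in that order, with means of 7.90, 7.04 and 6.89 FPKM, and Hgf and Pdgfd came last with overlapping values. In Shh+ cells the order was Pdgfa, Pdgfc, Kitl, Bdnf, Pdgfb, Ntf3 and Edn1, each apart from the next, and Hgf and Pdgfd overlapped at the bottom. Pdgfb was at place 3 in Nfatc1+ and at place 5 in Shh+ cells, and Pdgfc at places 4 and 2.

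Short promoter stretches are shown for 3 of the called ligands, because they were called in opposite directions. The letters searched are short cores of the TCF/LEF, NFAT and AP-1 families of transcription factors. RefSeq promoters (GRCm38.p6, 250 bases before each start) matched 8 of the 9 ligands, with 17 starts, all but Pdgfb. The TCF/LEF core CTTTG, on either strand, was in 48.6% of all 32851 promoters. It is in capitals below, at −167 and −160 of the Pdgfc start (chr3:81036237-81036266, plus strand), at −191 of the Edn1 start (chr13:42301273-42301302, plus strand) and at −185 of an Ntf3 start (chr6:126166912-126166941, minus strand), counted from the start to the first base of the match.
Pdgfc: cacgagtcctgaCAAAGcgCTTTGggagtg
Edn1: ccaatggggtgaCTTTGcttctggagaaac
Ntf3: aatcaagcacctCTTTGgttgcagtctgta
Pdgfc, higher in Shh+ cells, thus held the core in both orientations, and the genes higher in Nfatc1+ cells, Edn1 and Ntf3, held it as well. Neither of the 2 starts of Pdgfa held these letters in the window. The NFAT core GGAAA was in 55.6% of all promoters and was found before the starts of Pdgfc, Edn1 and Ntf3 and before 1 of 2 Pdgfa starts. The AP-1 letters TGANTCA were in 6.75% of all promoters and, of the 17 starts of the ligands, before 1 start of Bdnf. A match is only a description of letters.

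Relatives of these ligands were also measured. Edn2, an endothelin of epithelial cells, was at 34.7 and 34.8 FPKM in Nfatc1+ and at 19.1 and 14.1 FPKM in Shh+ libraries. It was 2.09-fold higher in Nfatc1+ cells (log2 fold change −1.06, limma adjusted p = 0.0111), the direction of Edn1. Edn2 was 3.97 and 4.93 times the level of Edn1 in Nfatc1+ libraries and 14.1 and 10.3 times in Shh+ libraries. Mst1, which encodes a relative of HGF that acts on the receptor RON, was at 1.86 and 1.79 FPKM in Nfatc1+ and at 0.524 and 0.492 FPKM in Shh+ libraries (log2 fold change −1.21, limma adjusted p = 0.00113). Ntf5, the gene of neurotrophin-4, was at 10.9 and 11.8 FPKM and at 11.3 and 7.88 FPKM, with overlapping ranges, and was not called (adjusted p = 0.345 from limma). Edn3 was at 0.184 and 0.364 FPKM and at 0.596 and 0.267 FPKM and was not tested. Of the 3 related ligands tested, 2 were thus higher in Nfatc1+ cells, beside 16.6% of all tested genes. Limma called 0 higher in Shh+ cells, beside 14.9% of all tested genes, with 0 at an unadjusted p under 0.05.

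**Figure D3:**
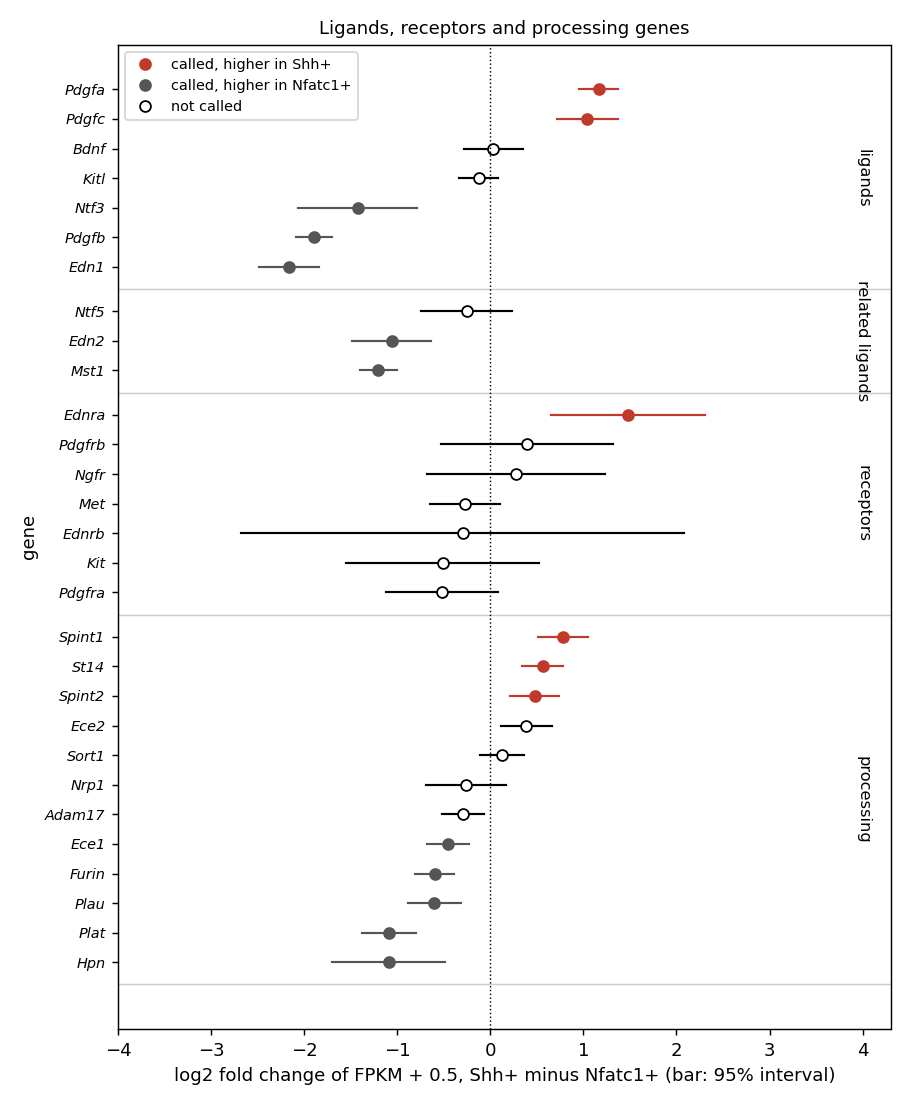
Log2 fold change of FPKM + 0.5, Shh+ minus Nfatc1+, of each tested ligand, related ligand, receptor and processing gene; bars are 95% intervals from limma, red marks a gene called higher in Shh+ cells, grey one called higher in Nfatc1+ cells, and an open circle one without a call. Ednra lies farthest to the right and Edn1 farthest to the left, and most receptors have wide intervals that cross 0.

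The receptors of these ligands were at 5.77 FPKM or less in every library. Standard errors of the log2 fold change ran from 0.14 to 0.89 for the tested receptors, against 0.073 to 0.24 for the tested ligands. Of 9 receptor genes, 7 passed the filter. By limma 1 was higher in Shh+ cells and none in Nfatc1+ cells, beside 14.9% and 16.6% of all tested genes. The counts at an unadjusted p under 0.05 were also 1 and 0. The called gene was Ednra, a receptor of endothelin-1, at 0.346 and 1.04 FPKM in Nfatc1+ and at 2.40 and 3.01 FPKM in Shh+ libraries (log2 fold change 1.48, standard error 0.31, limma adjusted p = 0.0275). Its direction was opposite to that of Edn1. The call ended without Shh+ replicate 1 (adjusted p = 0.0832), without Shh+ replicate 2 (0.111) and with a pseudocount of 0.1 FPKM (0.0564), in a range from 0.00857 to 0.111. Met, the HGF receptor, had the highest level of the receptors at 5.33 and 5.77 FPKM in Nfatc1+ and at 3.93 and 5.16 FPKM in Shh+ libraries (limma adjusted p = 0.217). The PDGF receptor genes were low next to their ligands, Pdgfra at 1.02 and 1.71 FPKM and at 0.943 and 0.631 FPKM, and Pdgfrb at 0.573 and 1.66 FPKM and at 1.59 and 1.42 FPKM. Neither was called with all libraries (adjusted p = 0.154 and 0.433), but Pdgfrb was called higher in Shh+ cells without Nfatc1+ replicate 2 (0.0203). The TRK receptor genes Ntrk2 and Ntrk3 were at 0.281 FPKM or less in all 4 libraries and were not tested. Ngfr was at 0.689 and 1.29 FPKM in Nfatc1+ and at 0.800 and 1.89 FPKM in Shh+ libraries (limma adjusted p = 0.600).

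Kit and Ednrb, the receptors of KITL and endothelins on melanocytes, differed between replicates in the same order in both populations. Kit was at 2.11 and 4.91 FPKM in Nfatc1+ and at 1.74 and 2.60 FPKM in Shh+ libraries, and Ednrb at 1.14 and 2.30 FPKM and at 0.217 and 3.73 FPKM. In each population replicate 2 was the higher one for both genes, as it also was for Ngfr, Ednra and Met, so that 5 of the 7 tested receptors showed this order, beside 24.9% of all tested genes. Neither Kit nor Ednrb was called (limma adjusted p = 0.370 and 0.825). The melanocyte list had the same order: all 10 markers were higher in replicate 2 of each population, none was at 0, and their summed level was 30.7 and 63.2 FPKM in Nfatc1+ and 7.25 and 42.7 FPKM in Shh+ libraries. Dct, a pigment enzyme gene, was at 9.90 and 21.4 FPKM and at 2.52 and 14.4 FPKM. The part of melanocytes in the levels of Kit and Ednrb was not tested. Kitl did not follow this order, being lower in replicate 2 of Nfatc1+ and higher in replicate 2 of Shh+ cells. Of the 7 tested ligands, 3 (42.9%) did follow it, namely Pdgfb, Pdgfc and Bdnf.

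**Figure D4:**
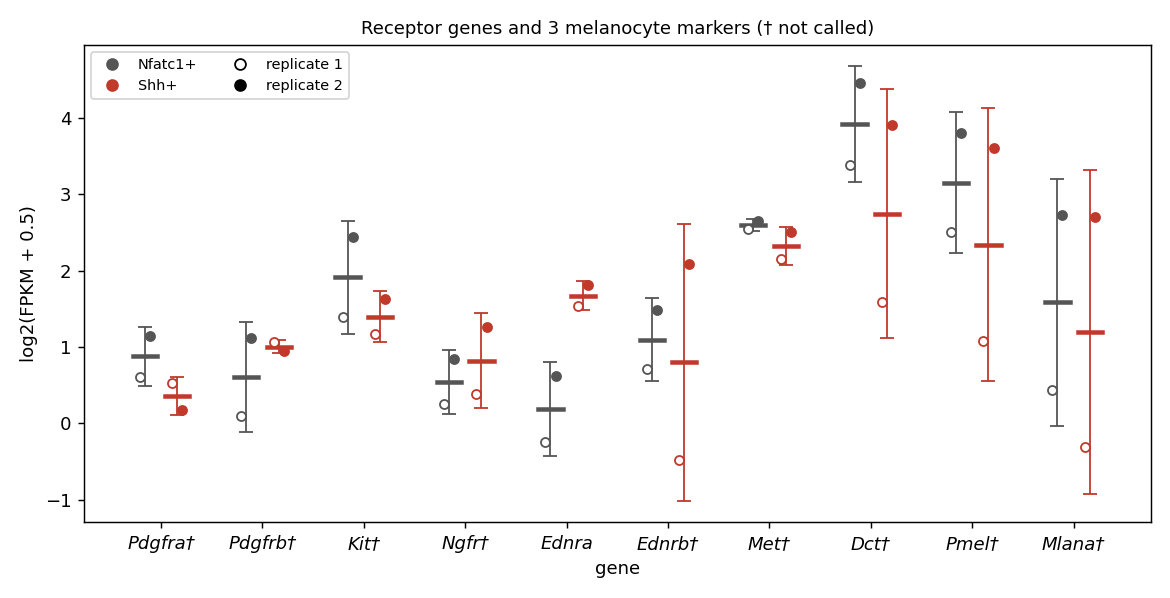
The 7 tested receptor genes and the melanocyte markers Dct, Pmel and Mlana on a log2(FPKM + 0.5) axis, 1 point per library, grey for Nfatc1+ and red for Shh+ cells, with open and filled circles for replicates 1 and 2, thick lines for means and bars for the SD over 2 libraries. Daggers mark genes that were not called. For Kit, Ednrb, Ngfr, Ednra, Met and the 3 markers, replicate 2 lies above replicate 1 in both populations, and of these genes only Ednra was called.

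Genes that cleave, activate or inhibit these ligands differed in both directions. Of 13 on the list, 12 were tested, and Hgfac, at 0.239 to 0.616 FPKM, was not. Of those tested, 5 were higher in Nfatc1+ cells and 3 in Shh+ cells, beside the 16.6% and 14.9% of all tested genes. Plat, the tissue plasminogen activator that activates PDGF-C, was at 6.06 and 5.09 FPKM in Nfatc1+ and at 2.43 and 2.27 FPKM in Shh+ libraries (log2 fold change −1.09, limma adjusted p = 0.00357). It was thus higher in the cells with less Pdgfc. Furin, a protease that matures many precursors including PDGFs and neurotrophins, was at 75.3 and 74.1 FPKM and at 50.8 and 47.7 FPKM (log2 fold change −0.60, limma adjusted p = 0.00765). Ece1, which converts endothelin precursors, was at 62.8 and 66.6 FPKM and at 48.9 and 45.5 FPKM, higher in Nfatc1+ cells as Edn1 and Edn2 were (log2 fold change −0.45, limma adjusted p = 0.0203). Plau and Hpn were also higher in Nfatc1+ cells, with log2 fold changes of −0.60 and −1.09.

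The inhibitors of HGF activation, Spint1 and Spint2, were higher in Shh+ cells. Spint1 was at 21.6 and 21.1 FPKM in Nfatc1+ and at 39.8 and 34.4 FPKM in Shh+ libraries (log2 fold change 0.78, limma adjusted p = 0.00735). Spint2 was at 152 and 156 FPKM and at 230.3 and 200.2 FPKM (log2 fold change 0.48, adjusted p = 0.0266). St14, which encodes matriptase, a protease held in check by these inhibitors, was higher in the same cells (log2 fold change 0.56, adjusted p = 0.0102). Adam17, which can shed KITL, was not called (limma adjusted p = 0.0657), nor were Ece2 (0.0511), Sort1 and Nrp1. With an intensity trend in limma, Adam17 was called higher in Nfatc1+ cells (adjusted p = 0.0322). Ece2 was called higher in Shh+ cells under 6 alternatives, with adjusted p from 0.0272 to 0.0484, the replicate block (0.0458) among them. The calls of Plat, Furin and Spint1 held when any library was left out. That of Ece1 ended without each library in turn (adjusted p from 0.0538 to 0.104), those of Plau and Spint2 without 3 of the 4, that of Hpn without either Nfatc1+ library (0.104 and 0.0777) and that of St14 without Nfatc1+ replicate 2 (0.0596).

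The genes closest to each ligand in level and pattern over the 4 libraries were found by the Euclidean distance of log2(FPKM + 0.5) among all tested genes, as a description. The nearest to Pdgfa were H19 and Krt1, both 0.61 log2 units away, while Pdgfb had Dixdc1 at 0.30 and Pdgfc had Gjc1 at 0.18. Ntf3 was nearest to Tgfa, another growth factor gene, at 0.25, and Edn1 to Cyp2d22 at 0.24. Kitl was nearest to Gsk3b at 0.037 and Bdnf to St7 at 0.073. Pdgfa had no gene as close as the other tested ligands did. The distance counts level as well as pattern, and few genes reach the level of Pdgfa, so it does not describe the pattern of Pdgfa alone. In the annotation (GENCODE M21), antisense genes overlap exons of Pdgfa, Pdgfc, Bdnf and Edn1. Since strand use is not given in the sources used here, reads of these antisense genes and of the ligands cannot be told apart.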

How the data were processed

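Per the labels and the study's methods, the authors sequenced paired-end RNA libraries of sorted cells, mapped reads to GRCm38/mm10 with TopHat2 2.0.13 and quantified genes with Cufflinks 2.2.1. HTSeq is also listed, and the annotation is not given in the sources used here. The deposited values are FPKM for 23361 gene symbols in 4 libraries, each column matched to its library by name. They hold no counts, so no count test was run and absolute depth is unknown.

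Rows with a mean of at least 0.5 FPKM (12750) were compared, Shh+ minus Nfatc1+, with limma 3.58.1 in R 4.3.3 on log2(FPKM + 0.5), with Benjamini-Hochberg adjustment over all tested genes. The fit was tested on simulated data. Alternatives were pseudocounts of 0.1 and 1 FPKM, no filter and a filter at 1 FPKM, upper-quartile and median-of-ratios scaling, an intensity trend, the replicate block, a call at an unadjusted p under 0.01 with a fold above 2, and leaving out each library. All 9 ligands were named, with fixed lists of receptors, relatives, processing genes and cell type markers, and, of the 2 nearest genes of each tested ligand, at least the closest. Some genes of these lists are not reported here. Members and lists were chosen with earlier results of these data known. Coordinates are from GENCODE M21 (GRCm38) and promoters from RefSeq (GRCm38.p6).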

Additional observations from a re-analysis of the deposited data

How the results depend on the processing

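The directions and calls of Pdgfa, Pdgfb, Pdgfc and Edn1 held under all alternatives run, as did the absence of a call for Kitl and Bdnf. Log2 fold changes ranged from 1.12 to 1.21 for Pdgfa, from −1.97 to −1.80 for Pdgfb, from 0.93 to 1.16 for Pdgfc and from −2.44 to −1.91 for Edn1. The log2 fold change of Ntf3 ranged from −1.76 to −1.10 when 1 library was left out, and its call ended without Nfatc1+ replicate 1 (−1.34). The sign of Bdnf turned without Nfatc1+ replicate 1 (−0.06) and without Shh+ replicate 2 (−0.073), in a range from −0.073 to 0.14. Calls over all tested genes fell from 2111 higher in Nfatc1+ and 1898 higher in Shh+ cells to 1210 to 1433 and 1097 to 1165 when 1 library was left out, and to 851 and 741 at an unadjusted p under 0.01 with a fold above 2. With fewer libraries, fewer residual degrees of freedom remain. At that p and fold, 2 processing genes were called higher in Nfatc1+ and 0 in Shh+ cells. When 1 library was left out they were 2 to 3 and 1 to 3. The 1 receptor called higher in Shh+ cells became 0 with a pseudocount of 0.1 FPKM and 0 to 2 when 1 library was left out, and the cause was not tested. Among single receptors, signs turned for Pdgfrb (−0.11) and Ngfr (−0.020) without Nfatc1+ replicate 1, for Ngfr without Shh+ replicate 2 (−0.16), for Kit (0.012) and Ednrb (0.089) without Nfatc1+ replicate 2, and for Ednrb without Shh+ replicate 1 (0.98). Their ranges when 1 library was left out were −0.11 to 0.90 for Pdgfrb, −1.04 to 0.012 for Kit, −0.16 to 0.71 for Ngfr and −1.58 to 0.98 for Ednrb.

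The labels give both populations replicates 1 and 2 but do not say what the numbers share. Deviations of same-numbered libraries correlated at r = 0.114 over 12750 genes, which with 2 pairs does not show pairing. With the replicate block, 3 ligands were called higher in Nfatc1+ and 2 in Shh+ cells, and 1980 and 1719 of all tested genes. Hgf, Pdgfd, Ntrk2 and Ntrk3 lie below the filter, and since absolute depth is unknown no limit on their levels was set.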

Other observations

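Markers of dermal fibroblasts, the cells that receive PDGF signals, had 1 call among 8 tested. It was Dcn, which encodes the matrix proteoglycan decorin, at 40.3 and 57.7 FPKM in Nfatc1+ and at 326 and 425 FPKM in Shh+ libraries (log2 fold change 2.94, limma adjusted p = 0.00183). The collagen genes Col1a1, Col1a2 and Col3a1 were not called, with Col1a1 at 77.9 and 165 FPKM in Nfatc1+ and at 71.6 and 52.7 FPKM in Shh+ libraries. The summed level of the 9 fibroblast markers, Dcn included, was 402 and 683 FPKM and 631 and 743 FPKM, with overlapping ranges.

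Of the 10 melanocyte markers, 1 was called. Mitf, a transcription factor gene of melanocytes that other cells also express, was at 9.74 and 12.3 FPKM in Nfatc1+ and at 0.860 and 1.29 FPKM in Shh+ libraries (log2 fold change −2.88, limma adjusted p = 0.00121). The pigment genes Pmel and Mlana overlapped between the populations, Mlana at 0.858 and 6.12 FPKM in Nfatc1+ and at 0.310 and 5.99 FPKM in Shh+ libraries. Schwann cell and nerve markers had 1 of 4 tested called, Ncam1, higher in Nfatc1+ cells (log2 fold change −0.91), and of 4 tested immune markers none was called by limma and 0 had an unadjusted p under 0.05, with Cd3e at 0 in all 4 libraries. The keratinocyte list had 4 of 6 markers called, each higher in Nfatc1+ cells. Epcam was not called and went the other way, at 157 and 146 FPKM in Nfatc1+ and at 167 and 169 FPKM in Shh+ libraries. Of all tested genes, 31.4% were called in either direction and 16.6% higher in Nfatc1+ cells. The genes of this section were singled out after their values were seen.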
